A study of Homo sapiens with 38 samples.

Results

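The 49 genes described here carry the machinery of mitosis. They are a list of mitotic kinases, cyclins and CDC25 phosphatases, checkpoint and anaphase regulators, kinetochore proteins, kinesins and spindle proteins, the chromosomal passenger complex and condensin subunits. Each gene was represented by the probe set with the highest mean log2 signal among the probe sets that name it alone. No measured change entered that choice of probe set, while the members were listed with earlier results of these data known. All 49 were among the 18063 genes tested. The signal of 45 of them lay above the pooled median of 34.88 on all 38 arrays. The exceptions were INCENP, above it on 22 arrays, CENPA on 36, and KIF14 and NCAPH on 37 each.

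The arrays profiled A375, a human melanoma cell line with an activating BRAF mutation, and 16R6-4, a clone derived from A375 that grew resistant to GSK2118436. GSK2118436 (GSK436, dabrafenib) blocks mutant BRAF. GSK1120212 (GSK212), also called trametinib, blocks MEK, which acts directly below BRAF. Cells of each line received DMSO, 0.1 or 1 µM GSK436, 10 or 30 nM GSK212, or 10 nM GSK212 together with 0.1 or 1 µM GSK436, all for 24 h in medium with serum. Parental groups had 3 arrays for DMSO, 10 nM GSK212 and both combinations and 2 arrays for the others. Groups of 16R6-4 had 2 arrays for DMSO and 3 arrays for every treatment. The resistant line is 1 clone, so a difference between the lines may belong to that clone. The labels do not say that replicates were separate cultures, and p-values then measure only the spread between these arrays. In whole-culture RNA, fewer cells in mitosis and less of each mRNA per cell cannot be told apart.

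In the cell cycle, most of these genes are transcribed mainly in G2 and mitosis, and arrested or non-cycling cells hold those silent. CDK1 with cyclin B drives entry into mitosis after CDC25 phosphatases remove its inhibitory phosphates, the spindle checkpoint holds anaphase until every kinetochore is attached, and the anaphase-promoting complex with CDC20 then ends mitosis. ERK signaling from mutant BRAF drives the entry of melanoma cells into the cycle, and blocking it leads to arrest in G1 in sensitive cells. Silencing of the late genes in G1 runs through the DREAM complex, which reads a cell cycle homology region (CHR) in their promoters, often beside CCAAT boxes bound by NF-Y, a factor that activates them.

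The promoter letters are shown because many members fell together in parental cells. Promoter windows of 300 bases, 250 before and 50 after the annotated start, were taken from RefSeq (GRCh38.p14) and matched by symbol for 41 of the 49 members. FOXM1, UBE2C, BIRC5, CENPM, TPX2, AURKA, BUB3 and TTK have no sequence shown. The CHR letters TTTGAA, or TTCAAA on the other strand, occurred in a window of 28 of the 41 genes (68.3%), against 18.2% of the 27305 genes in the table. The CCAAT box, CCAAT or ATTGG, occurred in 34 of 41 (82.9%), against 39.7% of all genes. The alternative CHR letters TTTAAA, which read the same on both strands, were in 14 of 41 (34.1%), against 14.5%. A match describes letters and does not show binding. The windows below hold the 120 bases just before the start, 5′ to 3′ along the gene, with CHR and CCAAT letters in capitals. The first 5 are the members that hold CHR letters within them and were lower in the most parental treatments, and CDC25A was added, after its values were seen, as the member called lower in the most treatments of the clone.
PRC1: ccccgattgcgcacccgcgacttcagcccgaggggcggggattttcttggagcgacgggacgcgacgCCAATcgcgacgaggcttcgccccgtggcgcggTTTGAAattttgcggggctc
ZWINT: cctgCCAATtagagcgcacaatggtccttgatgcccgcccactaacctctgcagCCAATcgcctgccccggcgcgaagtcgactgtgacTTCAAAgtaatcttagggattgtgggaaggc
CDCA8: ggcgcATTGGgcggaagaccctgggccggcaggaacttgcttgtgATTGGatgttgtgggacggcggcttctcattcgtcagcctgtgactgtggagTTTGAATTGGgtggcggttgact
CDK1: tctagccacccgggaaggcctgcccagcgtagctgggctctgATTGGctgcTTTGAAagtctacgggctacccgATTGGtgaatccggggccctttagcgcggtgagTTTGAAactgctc
MKI67: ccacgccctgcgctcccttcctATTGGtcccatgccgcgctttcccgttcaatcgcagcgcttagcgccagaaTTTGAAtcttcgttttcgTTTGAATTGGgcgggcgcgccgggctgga
CDC25A: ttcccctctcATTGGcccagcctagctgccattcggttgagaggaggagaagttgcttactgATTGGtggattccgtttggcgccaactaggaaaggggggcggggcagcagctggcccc

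These stretches lie at chr15:90994536-90994655, minus strand (PRC1), chr10:56361260-56361379, minus strand (ZWINT), chr1:37692396-37692515, plus strand (CDCA8), chr10:60778358-60778477, plus strand (CDK1), chr10:128126424-128126543, minus strand (MKI67) and chr3:48188418-48188537, minus strand (CDC25A). ZWINT and CDK1 have more than 1 annotated start with CHR letters in its window. The start with the most CHR letters in the 120 bases was used, and between equal starts (ZWINT) the one listed first. CDK1 and MKI67 each held 2 CHR matches in these 120 bases. In CDCA8 and MKI67 the last CHR and the last CCAAT match share 1 base, so they are not independent matches. The CDC25A window held 2 CCAAT boxes and no CHR letters. Over all windows of the members, 24 of 41 CHR matches (58.5%) began within the 50 bases before the start, against 14.7% of the 6238 CHR matches of the whole table. Windows of different starts of a gene can overlap, so these matches are not all separate sites. The ZWINT matches at -31 and -17 are the same letters, as are those of CDC25C at 44 and -30. CHR letters were not confined to the members that fell. They were present in 3 of the 6 members with an entry that fell in all 6 parental treatments and in 7 of the 10 with an entry that passed in none.

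**Figure D1:**
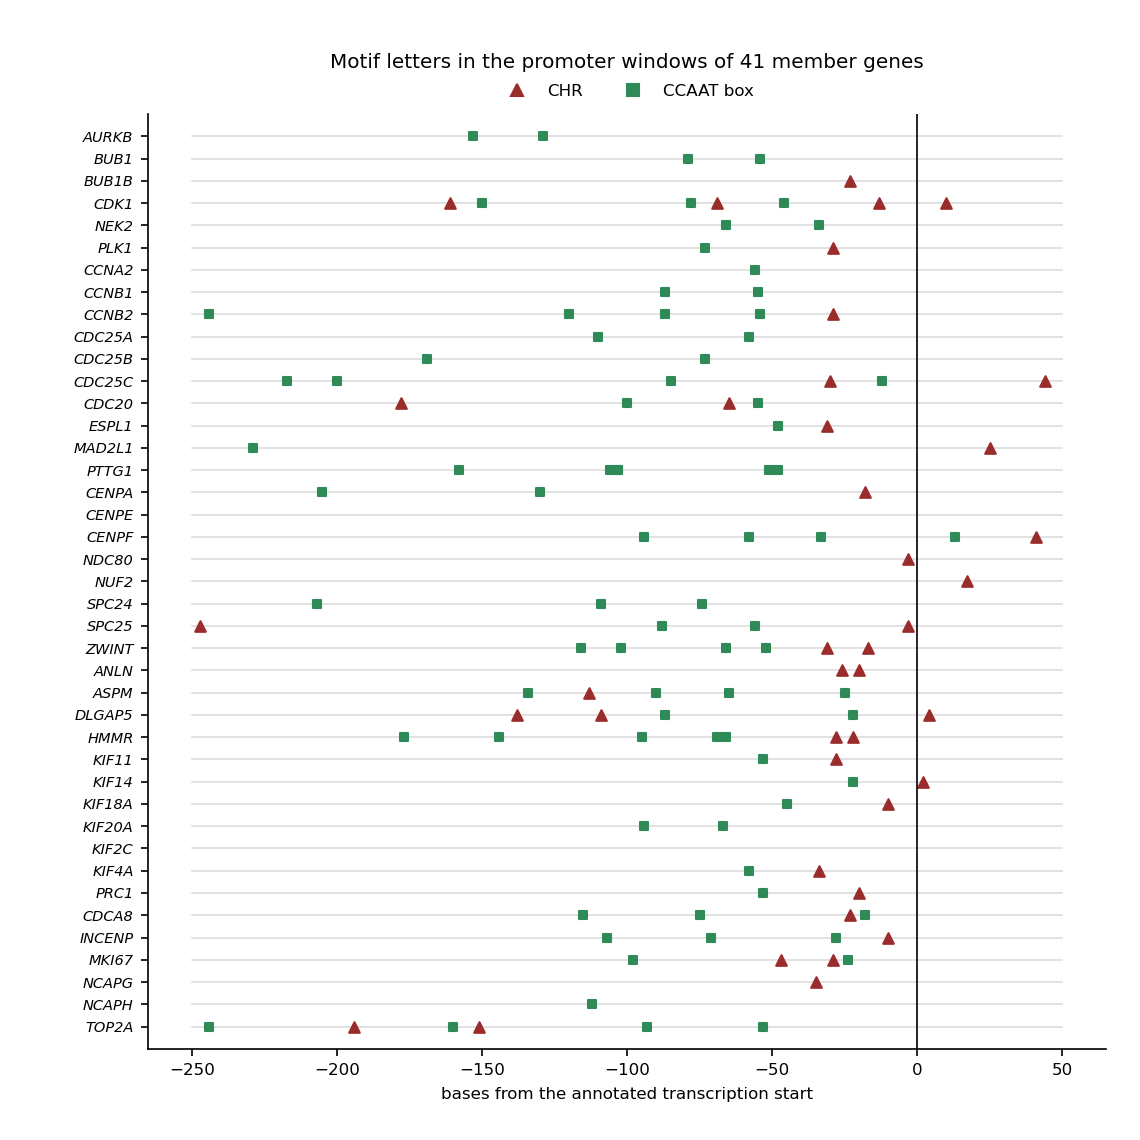
Position of CHR letters (red triangles) and CCAAT letters (green squares) in the promoter windows of the 41 member genes with an entry, as bases from the annotated transcription start (vertical line); genes with several starts have their windows overlaid. The red triangles gather just before the start, where 24 of the 41 CHR matches begin, with the CCAAT letters mostly further upstream. Matches are counted in every window, so letters shared by overlapping windows count more than once.

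As a readout of ERK signaling, DUSP6, an ERK phosphatase whose transcription follows ERK activity, was read first. Its signal in parental DMSO cells was 2277, 2343 and 2899. It fell in all 6 parental treatments, by 4.83 to 7.56 on the log2 scale, to at most 86.3. Many of these signals lay around or below the pooled median of 34.88, where the size of a fall is uncertain. In 16R6-4, DMSO signals of 1412 and 1828 stood beside 774 to 1864 under GSK436 alone and 4.60 to 68.6 in every treatment with GSK212, where DUSP6 fell. Under GSK436 alone DUSP6 was not called lower in the clone (-0.14 and -0.79 at 0.1 and 1 µM). MITF, a melanocyte lineage factor, was measured on every array, at 283 to 734 in parental and 864 to 1679 in 16R6-4 cells. SOX10, another one, was at 427 to 1414 in parental cells and at 1.96 to 21.0 in the clone, below the pooled median on every array there.

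In parental cells every treatment lowered 14 to 32 of the mitotic genes, and no member was called higher. A member was called lower or higher where the adjusted p (limma, Benjamini-Hochberg over all 18063 genes) was under 0.05 and the change at least 1 on the log2 scale. Under 0.1 µM GSK436, 20 of 49 were called lower, against 6.39% of all genes. Under 1 µM GSK436, 29 were called lower (background 7.68%). Under 10 nM GSK212, 19 were lower (background 4.04%), and under 30 nM, 14 were (background 3.42%). Under 10 nM GSK212 with 0.1 µM GSK436, 16 were lower (background 3.63%), and with 1 µM GSK436, 32 were (background 5.74%). Of these counts, 4 moved by over 1.5 times under an alternative. With each array centred on its median they were 33 in place of 20 at 0.1 µM GSK436, 30 in place of 19 and 36 in place of 14 at 10 and 30 nM GSK212, and 36 in place of 16 in the combination with 0.1 µM. With the actin 3′ to 5′ ratio, a measure of RNA quality, as a covariate, the count at 0.1 µM GSK436 was 9. Centring moves all genes of an array alike. The shares of all genes called under these alternatives are not given here. No member was called higher in any of the 6, where 11.4%, 11.8%, 7.68%, 6.47%, 6.96% and 11.2% of all genes were. The members' median changes, in the same order, were -0.75, -1.19, -0.88, -0.86, -0.82 and -1.32. The median of all genes moved the other way, by 0.39, 0.39, 0.17, 0.23, 0.23 and 0.34, opposite in sign to the members' medians in all 6. Per array, the all-gene median of log2 signal minus each gene's mean over all arrays also differed between arrays of the same group. At 10 nM GSK212 it was -0.01, 0.10 and 0.16 at actin ratios of 5.90, 15.4 and 32.1. At 30 nM it was 0.04 and 0.19 at ratios of 4.76 and 37.1. At 0.1 µM GSK436 it was 0.27 and 0.20 at the nearly equal ratios of 37.2 and 37.5. At an unadjusted p under 0.05, 1 member was higher at 0.1 µM GSK436 and 0 in each of the other 5, against 24.2%, 23.9%, 18.3%, 16.2%, 17.7% and 24.2% of all genes. With no size threshold, an adjusted p under 0.05 was reached by 32, 38, 38, 32, 34 and 45 members in the lower direction, against 11.6%, 13%, 9.15%, 7.21%, 8.4% and 11.7% of all genes. In the higher direction it was reached by 1 member, CDC25B at 0.1 µM GSK436, and by 0 in the others, against 15.4%, 16.2%, 12.2%, 9.16%, 10.8% and 16.8%.

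In the resistant clone few members were called. Of the 49 members, 0 were called lower under 0.1 or 1 µM GSK436, where 0% and 0.00554% of all genes were. A single member, CDC25A, was called lower under 10 nM GSK212 (background 0.615%), under 30 nM GSK212 (background 0.941%) and under the combination with 0.1 µM GSK436 (background 1.03%). The combination with 1 µM GSK436 lowered 4 members (background 1.69%). Without replicate 3 of the combination with 0.1 µM GSK436, 2 members were called there. No member was called higher, against 0.00554%, 0.072%, 2.15%, 3.37%, 3.83% and 4.83% of all genes. At an unadjusted p under 0.05 (limma), 0, 0, 3, 5, 7 and 17 members were lower, against 0.692%, 0.947%, 4.55%, 6.32%, 6.54% and 7.97% of all genes. At that level 1, 0, 8, 4, 2 and 1 were higher, against 3.66%, 2.32%, 10.9%, 12.6%, 13.6% and 14.2%. The counts of lower members at 10 and 30 nM GSK212 are near the background. Median changes of the members in 16R6-4 were -0.03, 0.05, 0.06, -0.01, -0.07 and -0.35, beside 0.10, 0.05, 0.17, 0.22, 0.22 and 0.21 for all genes.

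**Figure D2:**
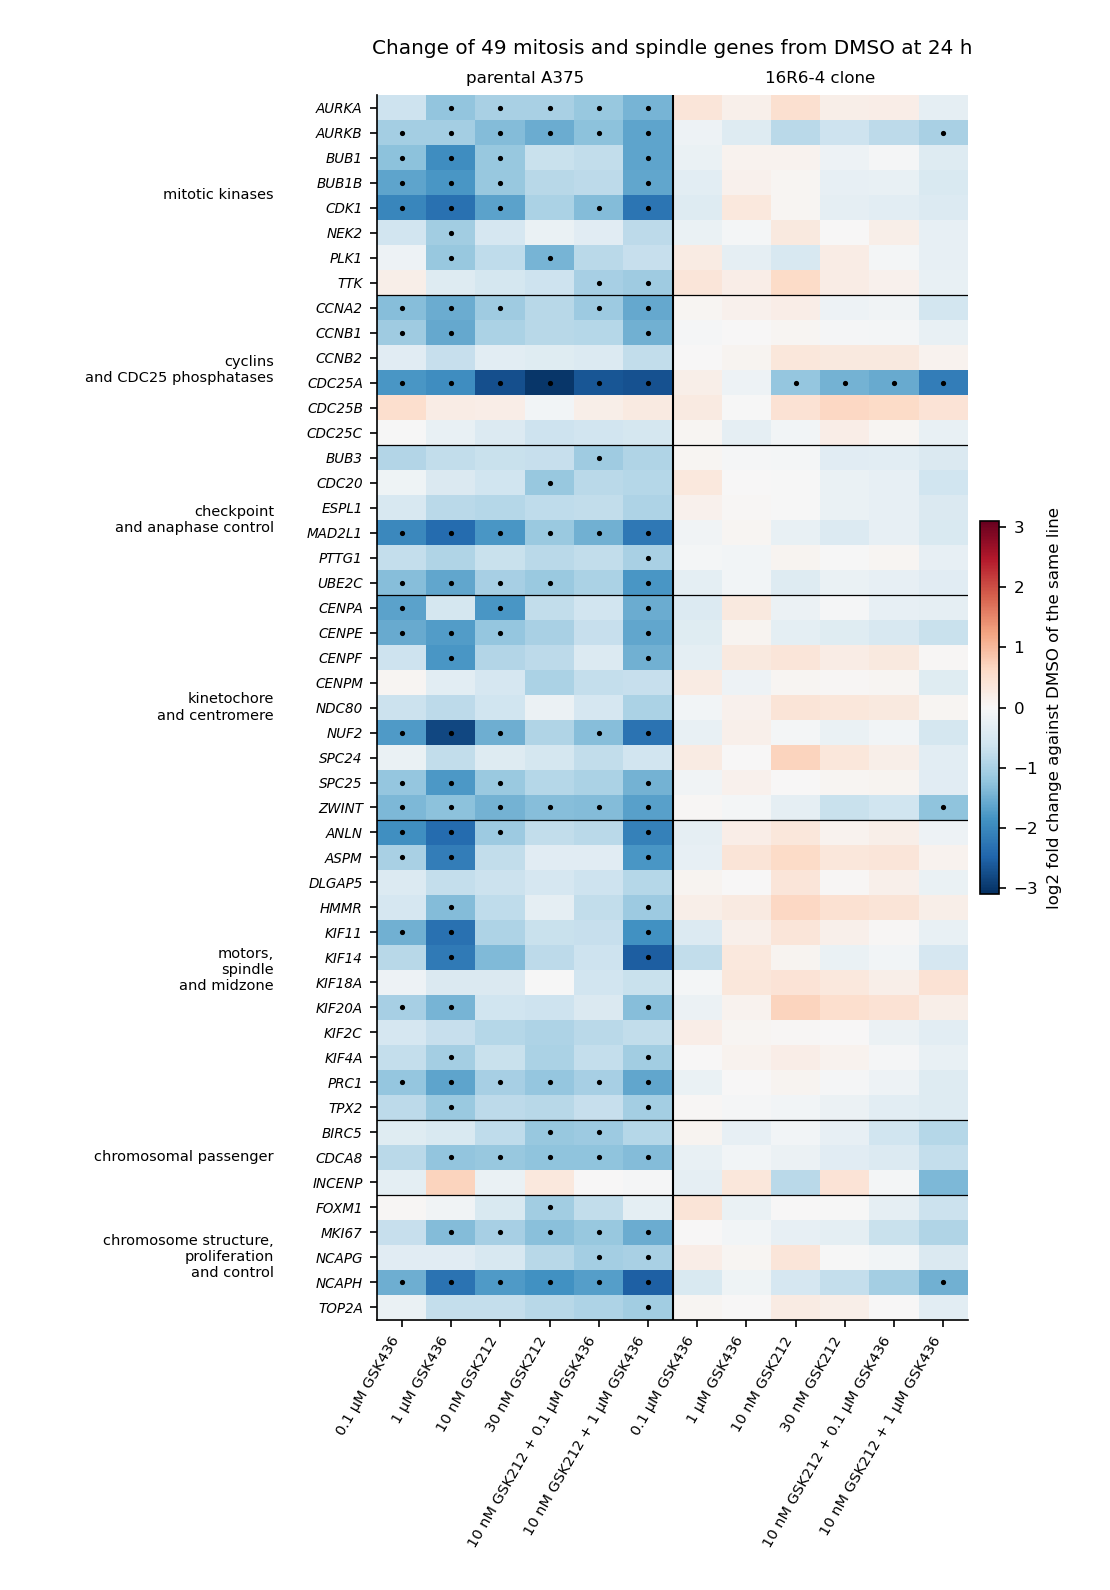
Change of each of the 49 genes from DMSO of the same line (color, log2 fold change) under the 6 treatments in parental A375 (left columns) and in 16R6-4 (right columns), grouped by role; dots mark calls (adjusted p under 0.05 and a change of at least 1). Parental columns are blue with 14 to 32 dots each, while the 16R6-4 columns hold 0 to 4.

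The 8 mitotic kinases were each called lower in at least 1 parental treatment. CDK1, the kinase that drives entry into mitosis, had signals of 1332, 2022 and 2137 in parental DMSO arrays. They were 377 and 511 at 0.1 µM GSK436, 326 and 393 at 1 µM, 411, 447 and 1002 at 10 nM GSK212, 882 and 925 at 30 nM, and 493, 821 and 865 and 352, 366 and 395 in the combinations with 0.1 and 1 µM GSK436. All treated parental arrays were below all DMSO arrays. CDK1 fell by 2.31 ± 0.40 (SE; adjusted p = 4.64e-05) at 1 µM GSK436, and at 30 nM GSK212 its change of -0.99 ± 0.40 missed the threshold (adjusted p = 0.095). In 16R6-4 the DMSO signals were 1391 and 2545 and those under 1 µM GSK436 2191, 2201 and 2766. The clone's groups overlap there, and the 95% interval of its change ran from -0.49 to 1.15. The lowest 16R6-4 values, 716 and 733, came from single arrays under 0.1 µM GSK436 and 30 nM GSK212, with actin 3′ to 5′ ratios of 37.4 and 45.0.

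AURKA, which matures centrosomes and the spindle poles, and AURKB, the kinase of the chromosomal passenger complex, are the aurora kinases of the list. AURKA was 1858, 1958 and 2129 in parental DMSO and 825 and 879 at 1 µM GSK436, a change of -1.21 ± 0.15 (adjusted p = 2.16e-07), and was called lower in 5 of 6 parental treatments. Its calls at 10 and 30 nM GSK212 ended without DMSO replicate 1 (-0.95 and -0.96), without 10 nM replicate 3 (-0.91) and without 30 nM replicate 2 (-0.88). In 16R6-4 its DMSO signals of 1224 and 1383 were below the parental ones, and the signals under 10 nM GSK212, 1636, 1852 and 2007, were all above the clone's own DMSO, at 0.49 ± 0.15 (adjusted p = 0.0551, not called). AURKB was 652, 674 and 819.9 in parental DMSO, was called lower in all 6 parental treatments, and reached 214, 222 and 252 in the combination with 1 µM GSK436 (-1.63 ± 0.24; adjusted p = 3.19e-06). In 16R6-4 AURKB was 727 and 1016 in DMSO and 339, 385 and 583 in that combination, a fall of 1.02 ± 0.27 (adjusted p = 0.00976). All 3 combination arrays were below both DMSO arrays. This call was lost without 16R6-4 DMSO replicate 1 (-0.77, adjusted p = 0.203) or without combination replicate 2 (-0.86) or 3 (-0.95), under quantile normalization (-0.93) and with the actin 3′ to 5′ ratio as a covariate (-0.98).

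BUB1, a checkpoint kinase at kinetochores, was 448, 653 and 657 in parental DMSO, 229 and 248 at 0.1 µM and 144 and 158 at 1 µM GSK436, and 204, 242 and 331 at 10 nM GSK212. Its fall was 1.92 ± 0.26 at 1 µM GSK436 (adjusted p = 1.56e-06), and the mean of all its probe sets gave -0.91, with no call in that or any other parental treatment. The 16R6-4 signals were 553 and 632 in DMSO and 614, 641 and 648 at 1 µM GSK436, which lie side by side. PLK1, which acts at centrosomes, kinetochores and the midzone, was 117, 121 and 172 in parental DMSO. It was called lower at 1 µM GSK436 (51.1 and 65.0; -1.19 ± 0.30, adjusted p = 0.0028) and at 30 nM GSK212 (40.8 and 55.7; -1.45 ± 0.30, adjusted p = 0.000549), and was not at 0.1 µM GSK436, with signals of 92.3 and 156 and a change of -0.16. Among the other kinases, BUB1B, a checkpoint kinase relative, was called lower in 4 parental treatments (to -1.79), NEK2, a centrosome kinase, in 1 (-1.08 at 1 µM GSK436) and TTK, the kinase that starts the spindle checkpoint, in the 2 combinations (-1.02 and -1.09).

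Of the 6 cyclins and CDC25 phosphatases, 3 fell in parental cells. CCNB1, cyclin B1, the partner of CDK1, was 4472, 4591 and 4877 in parental DMSO and 1402 and 1691 at 1 µM GSK436, a change of -1.59 ± 0.17 (adjusted p = 1.17e-08). Its highest treated parental signal, 2839 at 30 nM GSK212, was below its lowest DMSO signal. In 16R6-4 CCNB1 was 3706 and 4389 in DMSO and 3880.3, 3969.6 and 4405 at 1 µM GSK436, where the 95% interval of the change was -0.33 to 0.36. The parental change at this dose lies outside that interval. CCNA2, cyclin A2, was called lower in 5 parental treatments, down to -1.59. CCNB2, another B cyclin, missed the size threshold in every treatment, at -0.33 to -0.77.

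CDC25A, the phosphatase that acts on CDK2 and CDK1 from G1 onward, was the member called in the most treatments of the clone. Its parental DMSO signals of 481, 571 and 681 stood against 140.0 and 189.5 at 0.1 µM and 131 and 167 at 1 µM GSK436, 52.7, 104 and 108 at 10 nM and 63.4 and 73.1 at 30 nM GSK212. It fell in all 6 parental treatments, most at 30 nM GSK212 (-3.02 ± 0.28; adjusted p = 8.59e-10), the largest fall of any member. In 16R6-4 the DMSO signals were 644 and 828, and those under GSK436 alone were 678, 763 and 1092 at 0.1 µM and 626, 674 and 678 at 1 µM. With GSK212 they were 301, 315 and 328 at 10 nM, 246, 266 and 281 at 30 nM, 224, 245 and 265 with 0.1 µM GSK436 and 133, 169 and 192 with 1 µM GSK436. Every GSK212 array of the clone was below both of its DMSO arrays, and none of its GSK436 arrays reached as low as any of them. The 4 changes were -1.21 ± 0.28, -1.46 ± 0.28, -1.57 ± 0.28 and -2.15 ± 0.28, with adjusted p of 0.00769, 0.000682, 0.000241 and 1.19e-06. The call at 10 nM was lost without 16R6-4 DMSO replicate 1 (-1.03, adjusted p = 0.157) and on arrays with an actin ratio of at most 20 (adjusted p = 0.189).

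The other CDC25 phosphatases were not called in either line. CDC25B, which activates CDK1 at the centrosome, was 1642, 1682 and 2158 in parental DMSO and 2449.7 and 2787 at 0.1 µM GSK436, 0.53 ± 0.19 and not called. In 16R6-4 it was 777 and 1081 in DMSO and 1159, 1297 and 1916 at 30 nM GSK212, higher by 0.63 ± 0.19 with an adjusted p of 0.0322 but under the size threshold. CDC25C was not called in any treatment, with changes of -0.64 to -0.02 in parental cells.

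**Figure D3:**
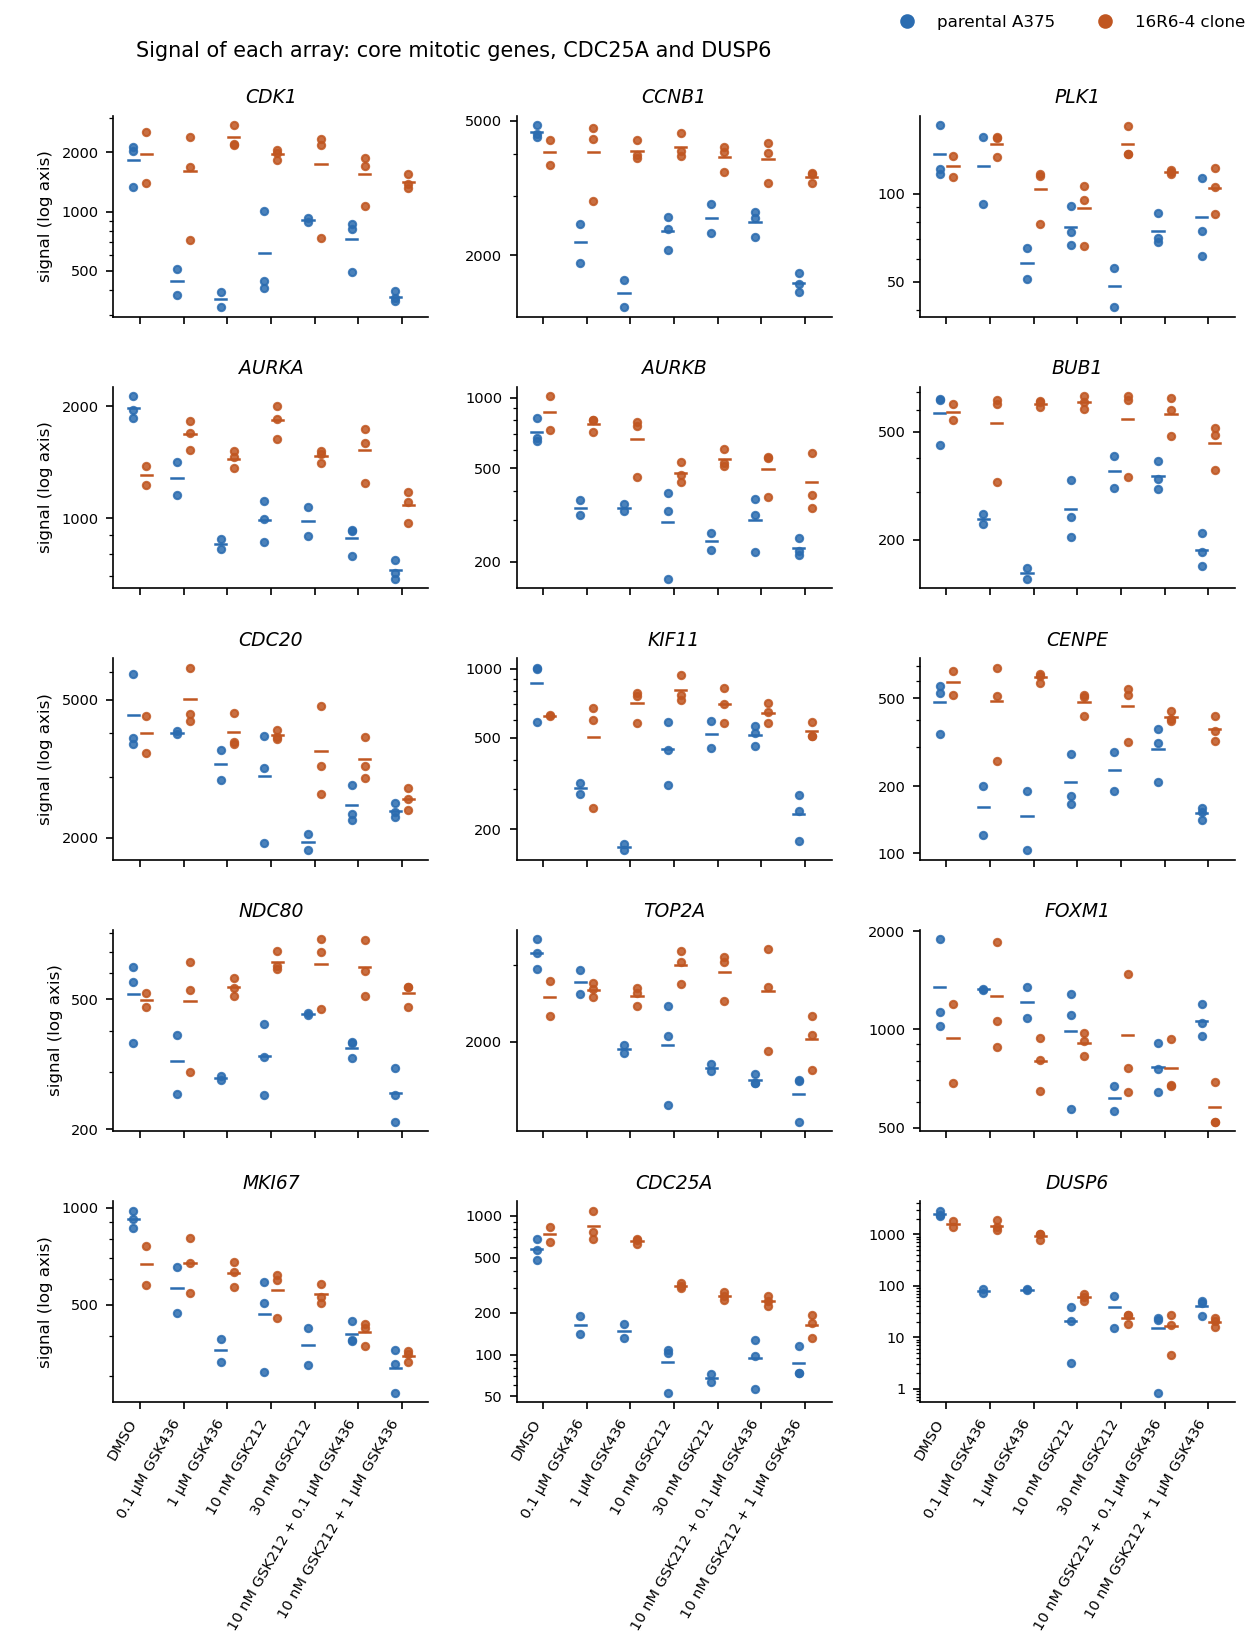
Signal on each array (log axis) of 13 core mitotic genes, of CDC25A and of DUSP6, by treatment, for parental A375 (blue) and 16R6-4 (orange); short bars are group means. For CDK1, CCNB1, AURKA and AURKB the treated parental arrays lie below all parental DMSO arrays, while DUSP6 falls in both lines wherever GSK212 is present and CDC25A in 16R6-4 falls only there.

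Among the 6 checkpoint and anaphase genes, MAD2L1, the checkpoint protein that holds CDC20 inactive, fell in all 6 parental treatments. Its parental DMSO signals were 1412, 2303 and 2677, and those at 1 µM GSK436 were 302 and 509, a change of -2.38 ± 0.34 (adjusted p = 2.41e-06). The clone stayed at 2320.0, 2682 and 2708 at that dose, against 1902 and 3138 in DMSO. UBE2C, the ubiquitin-conjugating enzyme of the anaphase-promoting complex, was called lower in 5 parental treatments, down to -1.81. CDC20, the activator of that complex, was 3731, 3875 and 5903 in parental DMSO and was called lower only at 30 nM GSK212, with 1839 and 2048 (-1.18 ± 0.23; adjusted p = 0.000237). At 0.1 µM GSK436 its signals of 3976 and 4058 lay within the DMSO range. Without parental DMSO replicate 3, the highest DMSO array, the 30 nM change was -0.97 and no longer called. BUB3, a checkpoint protein, and PTTG1, securin, were each called once (-1.09 in the combination with 0.1 µM and -1.01 in that with 1 µM GSK436), and ESPL1, separase, in none, at -0.97 to -0.49.

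The 9 kinetochore and centromere genes held the member that fell furthest under GSK436. NUF2, a subunit of the NDC80 complex that grips microtubules, was 558, 983 and 1027 in parental DMSO and 102 and 131 at 1 µM GSK436, a change of -2.81 ± 0.35 (adjusted p = 2.24e-07). Its clone values were 834 and 1169 in DMSO and 1075, 1096 and 1116 at that dose. Calls differed among the other subunits of that complex. SPC25 was called lower in 4 parental treatments (to -1.77), while SPC24 (-0.76 at 1 µM GSK436) and NDC80 were called in none. NDC80 was 368, 567 and 626 in parental DMSO and 282 and 291 at 1 µM GSK436, -0.82 ± 0.26 with an adjusted p of 0.0159 and under the size threshold. Its 30 nM GSK212 arrays, at 447 and 453, lay inside the DMSO range.

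CENPE, the kinesin that moves chromosomes to the metaphase plate, was 346, 527 and 568 in parental DMSO and 103 and 190.3 at 1 µM GSK436, and was called lower in 4 treatments (-1.73 ± 0.32 at 1 µM; adjusted p = 1e-04). CENPA, the centromeric histone, was called in 3 (to -1.82) and CENPF, a matrix protein of the outer kinetochore, in 2 (to -1.80). The CENPA change of -1.82 was at 10 nM GSK212, with signals of 13.9, 67.7 and 125, the first below the pooled median. Without that array, replicate 1, the change was -0.98 and not called. The CENPA calls at 0.1 µM GSK436 (-1.46 or -0.89) and in the combination with 1 µM (-1.34 or -1.32) also ended without a single array. CENPM, a centromere protein, was called in none. ZWINT, which recruits the ROD-ZW10 complex to kinetochores, fell in all 6 parental treatments within a narrow range, -1.26 to -1.70. Its signals were 3517, 3662 and 3950.4 in parental DMSO and 1110 to 1631 over all 15 treated parental arrays, with no overlap. In the clone, ZWINT was 4479.8 and 4913 in DMSO and 1859, 1890.5 and 2149 in the combination with 1 µM GSK436, where it fell by 1.26 ± 0.13 (adjusted p = 1.19e-08).

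Of the 12 motors and spindle proteins, 9 fell at 1 µM GSK436 and 9 in the combination with that dose, 5 at 0.1 µM GSK436, 2 at 10 nM GSK212 and 1 at 30 nM. Of all genes, 7.68%, 5.74%, 6.39%, 4.04% and 3.42% were called lower, in the same order. KIF11, the kinesin that separates the spindle poles, was 587, 1003 and 1012 in parental DMSO, 284 and 318 and 161 and 172 at 0.1 and 1 µM GSK436, and 310.4, 444 and 588 at 10 nM GSK212. It fell by 2.32 ± 0.29 at 1 µM GSK436 (adjusted p = 2.56e-07), and its 10 nM GSK212 change of -0.95 ± 0.26 was under the size threshold (adjusted p = 0.00602). The clone's KIF11 signals were 622 and 629 in DMSO and 578, 757 and 787 at 1 µM GSK436. Falls at 1 µM GSK436 were also measured for ANLN, a scaffold of the cleavage furrow (-2.40), KIF14, a kinesin of cytokinesis (-2.18), ASPM, a spindle pole protein (-2.14), KIF20A, a midzone kinesin (-1.44), and HMMR, a spindle protein that binds hyaluronan (-1.34). PRC1, which bundles the microtubules of the midzone, was the member of this group that fell in all 6 parental treatments, from -1.64 to -1.04. KIF4A, a chromosome-bound kinesin that works with PRC1, and TPX2, which activates AURKA on the spindle, were each called in the 2 treatments with 1 µM GSK436. KIF2C and KIF18A, both microtubule-depolymerizing kinesins, and DLGAP5, a spindle assembly protein, were called in none.

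Of the chromosomal passenger proteins, CDCA8 (borealin) was called lower in 5 parental treatments, to -1.35, and BIRC5 (survivin) in 2, at -1.17 for 30 nM GSK212 and -1.13 for the combination with 0.1 µM GSK436. INCENP, the scaffold of the complex, had signals of 2.10 to 114 over all arrays, from far below to above the pooled median, and its parental changes had standard errors of 0.75 or 0.84. Its parental arrays at 1 µM GSK436 lay above DMSO, with a change of 0.70 ± 0.84 that was not called. Of the condensin I subunits, NCAPH fell in all 6 parental treatments. Its signals were 263, 380.0 and 389 in DMSO and 34.3, 63.8 and 80.5 in the combination with 1 µM GSK436 (-2.53 ± 0.32; adjusted p = 1.84e-07). The same combination took it from 308 and 461 to 101, 146 and 156 in 16R6-4 (-1.49 ± 0.36; adjusted p = 0.00389), a call that was lost without the clone's DMSO replicate 2 (-1.20, adjusted p = 0.127). NCAPG, another condensin I subunit, was called only in the 2 parental combinations (-1.05 and -1.02).

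MKI67, the chromosome-surface protein Ki-67 used to mark cycling cells, was 866, 920.5 and 979.7 in parental DMSO and between 265 and 653 on all 15 treated parental arrays. It fell by 1.35 ± 0.21 at 1 µM GSK436 (adjusted p = 1.15e-05), and its call there was lost when all its probe sets were averaged (-0.73). In 16R6-4 MKI67 was 577 and 761 in DMSO and 332, 350.1 and 358 in the combination with 1 µM GSK436, -0.93 ± 0.21 with an adjusted p of 0.00252 and just under the size threshold. TOP2A, topoisomerase II alpha, was 2941, 3209 and 3448 in parental DMSO and was called lower only in the combination with 1 µM GSK436, at 1309.6, 1622 and 1633 (-1.08 ± 0.16; adjusted p = 5.02e-06). Without combination replicate 2 the change was -0.97 and not called. At 0.1 µM GSK436 its signals were 2577 and 2930.4, just below the DMSO arrays. FOXM1, the forkhead factor that activates many of these genes in G2, was 1022, 1134 and 1892 in parental DMSO, 1081 and 1352 at 1 µM GSK436 and 563 and 673 at 30 nM GSK212. It was called lower only at 30 nM (-1.07 ± 0.32; adjusted p = 0.0166), and without either 30 nM array (-1.20 and -0.95) or without DMSO replicate 3 (-0.80) it was not. The DMSO arrays alone spanned 1022 to 1892.

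Counted over treatments, 38 of the 49 members were called lower in at least 1 parental treatment. For counts over several treatments, here and by role above, the matching share of all genes was not taken. They are therefore not read against a background. The 6 called in all 6 were MAD2L1, NCAPH, CDC25A, ZWINT, PRC1 and AURKB. Averaging every probe set of a gene ended 21 of the 130 parental calls, of 11 members. Among them were those of AURKB at 0.1 µM (-0.34, adjusted p = 0.461) and 1 µM GSK436 (-0.73, adjusted p = 0.103), and those of MAD2L1 at 30 nM GSK212 (-1.15, adjusted p = 0.124) and in the combination with 0.1 µM GSK436 (-0.89, adjusted p = 0.175). Of the same 130 calls, 38, of 26 members, ended when 1 array was left out. Every call of NCAPH, CDC25A and ZWINT held without any single array. MAD2L1 lost its call at 30 nM GSK212 without DMSO replicate 1 (-1.08) or 2 (-0.97) or 30 nM replicate 3 (-0.97). AURKB lost those at 0.1 and 1 µM GSK436 without DMSO replicate 3 (-0.96 each), at 0.1 µM also without its replicate 2 (-0.96), and at 10 nM GSK212 without replicate 3 (-0.98). PRC1 lost 4 calls in this way, those at 0.1 µM GSK436, at both GSK212 doses and in the combination with 0.1 µM GSK436, with changes of -0.98 to -0.90. The 11 called in none were ESPL1, INCENP, CDC25B, CDC25C, CCNB2, SPC24, NDC80, CENPM, KIF2C, KIF18A and DLGAP5. In 16R6-4, 45 members were called in no treatment. Arrays separated more often than calls were made. At 1 µM GSK436 the parental treated arrays lay wholly below DMSO for 42 of 49 members, against 19.9% of all genes, and in the combination with 1 µM GSK436 for 45, against 15.2%. In the clone 1 member did so at 1 µM GSK436, against 7.69%, and 28 did in the combination with 1 µM GSK436, against 14.9%, with 4 of the 49 called there. INCENP, at -1.40 ± 0.84, was past the size threshold and not called. Other probe sets of the same genes were read as a second measure. Of 44 such probe sets, 18 were called lower in parental cells at 1 µM GSK436 and 0 higher, against 6.43% and 8.77% of all 35888 probe sets tested. Parental cells had 15 called lower at 10 nM GSK212 (background 3.3%) and 20 in the combination with 1 µM GSK436 (background 5.02%), with 0 higher in both. In 16R6-4, 0 were called at 10 nM GSK212 (background 0.527% lower, 1.37% higher). In the clone's combination with 1 µM GSK436, 2 were called lower, both of CDC25A, and 1 higher, of CCNB2 (2.08), against 1.39% and 3.2%.

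The difference between the lines was tested directly as the clone's change minus the parental change, so a positive value means that the clone's change lay above the parental one. The clone's own change could be negative or positive, as for AURKA (0.49) and HMMR (0.64) at 10 nM GSK212, neither of them called. At 1 µM GSK436, 27 of 49 members were called positive and 0 negative, against 5.46% and 5.51% of all genes. At 10 nM GSK212, 12 were (background 0.925%). At 0.1 µM GSK436, 5 were (background 1.9%), at 30 nM GSK212, 5 (background 0.399%), in the combination with 0.1 µM GSK436, 4 (background 0.454%) and with 1 µM GSK436, 10 (background 0.659%). The members' medians were 1.14 at 1 µM GSK436 and 1.01 at 10 nM GSK212, beside -0.26 and 0.04 for all genes. No member was called negative in any of the 6, where 2.27%, 5.51%, 0.974%, 0.393%, 0.332% and 0.393% of all genes were, in the order 0.1 and 1 µM GSK436, 10 and 30 nM GSK212 and the combinations with 0.1 and 1 µM GSK436. At an unadjusted p under 0.05 (limma), 0 members were negative in each, against 9.49%, 14.2%, 5.38%, 3.42%, 3.16% and 5.18% of all genes. Leaving out single arrays ended calls in each difference. Those held without any 1 array were 3 of 5 at 0.1 µM and 21 of 27 at 1 µM GSK436, 4 of 12 at 10 nM and 1 of 5 at 30 nM GSK212, and 1 of 4 and 3 of 10 in the combinations. Single arrays also moved the smaller counts. At 10 nM GSK212 there were 19 calls without parental 10 nM replicate 3 and 6 without the clone's DMSO replicate 2. At 30 nM there was 1 without parental 30 nM replicate 3 or the clone's DMSO replicate 2, and 3, 2 and 3 without the clone's 30 nM replicates 1, 2 and 3. In the combination with 0.1 µM GSK436 there were 2 without parental DMSO replicate 1, parental combination replicate 1 or the clone's DMSO replicate 1, and 1 without the clone's DMSO replicate 2 or combination replicate 1. In that with 1 µM there were 6 without parental DMSO replicate 1 or 2 or combination replicate 3, and 3 without the clone's DMSO replicate 1. At 0.1 µM GSK436 there were 10 without parental 0.1 µM replicate 3, 11 without parental DMSO replicate 3 and 17 without the clone's 0.1 µM replicate 3.

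At 1 µM GSK436 the largest called differences between the lines were those of NUF2 (2.96 ± 0.49; adjusted p = 0.000107), CDK1 (2.65 ± 0.57; 0.00189), ANLN (2.60 ± 0.55; 0.00165), ASPM (2.53 ± 0.54; 0.00173) and KIF14 (2.50 ± 0.82; 0.039). All of these genes were lowest in the clone's 0.1 µM GSK436 group on replicate 3, whose actin 3′ to 5′ ratio was 37.4. NUF2 was 455 there, against 1207 and 1105, and CDK1 716, against 2396 and 1694. At 10 nM GSK212 the clone's NUF2 was 961 and 897 at ratios of 27.4 and 27.1, and 984 at 13.7. At 1 µM GSK436 ratios were 23.3 and 32.6 in parental arrays and 20.5, 7.94 and 4.25 in the clone's. The part of RNA quality in these differences was not tested. The call for KIF14 was lost on leaving out any of 7 arrays, at adjusted p of 0.062 to 0.231. The other calls at this dose that ended without a single array were those of CDCA8, CENPE and NCAPH (any of 2 arrays each), TPX2 (1 array) and NEK2, the smallest called difference (1.02 ± 0.31; adjusted p = 0.0248), which ended without any of 5 arrays (adjusted p of 0.0441 to 0.184). At 10 nM GSK212 the largest called differences were those of CDC25A (1.52 ± 0.38), AURKA (1.49 ± 0.20), HMMR (1.43 ± 0.27), KIF20A (1.32 ± 0.30) and CCNA2 (1.32 ± 0.25). The call for CDC25A at 10 nM was lost without parental 10 nM replicate 3 (1.19), parental DMSO replicate 3 (1.39), the clone's DMSO replicate 1 (1.70) or 2 (1.34), or its 10 nM replicate 1 (1.49). AURKA and CCNA2 were each called in 5 of the 6 differences. The calls for AURKA held without any single array, while those for CCNA2 in the combinations with 0.1 and 1 µM GSK436 ended without any of 9 and 6 arrays. At 30 nM GSK212 PLK1 led (1.68 ± 0.42; adjusted p = 0.0399), with calls also for AURKA (1.19), PRC1 (1.17), KIF4A (1.08) and TOP2A (1.06). The call for PLK1 was lost without any of 9 of the 10 arrays (adjusted p of 0.0541 to 0.281) and with a replicate block (0.0571). Those for PRC1, TOP2A and KIF4A were lost without any of 6, 7 and 2 arrays. Whether the difference at 1 µM GSK436 is itself larger than that under GSK212 was not tested.

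**Figure D4:**
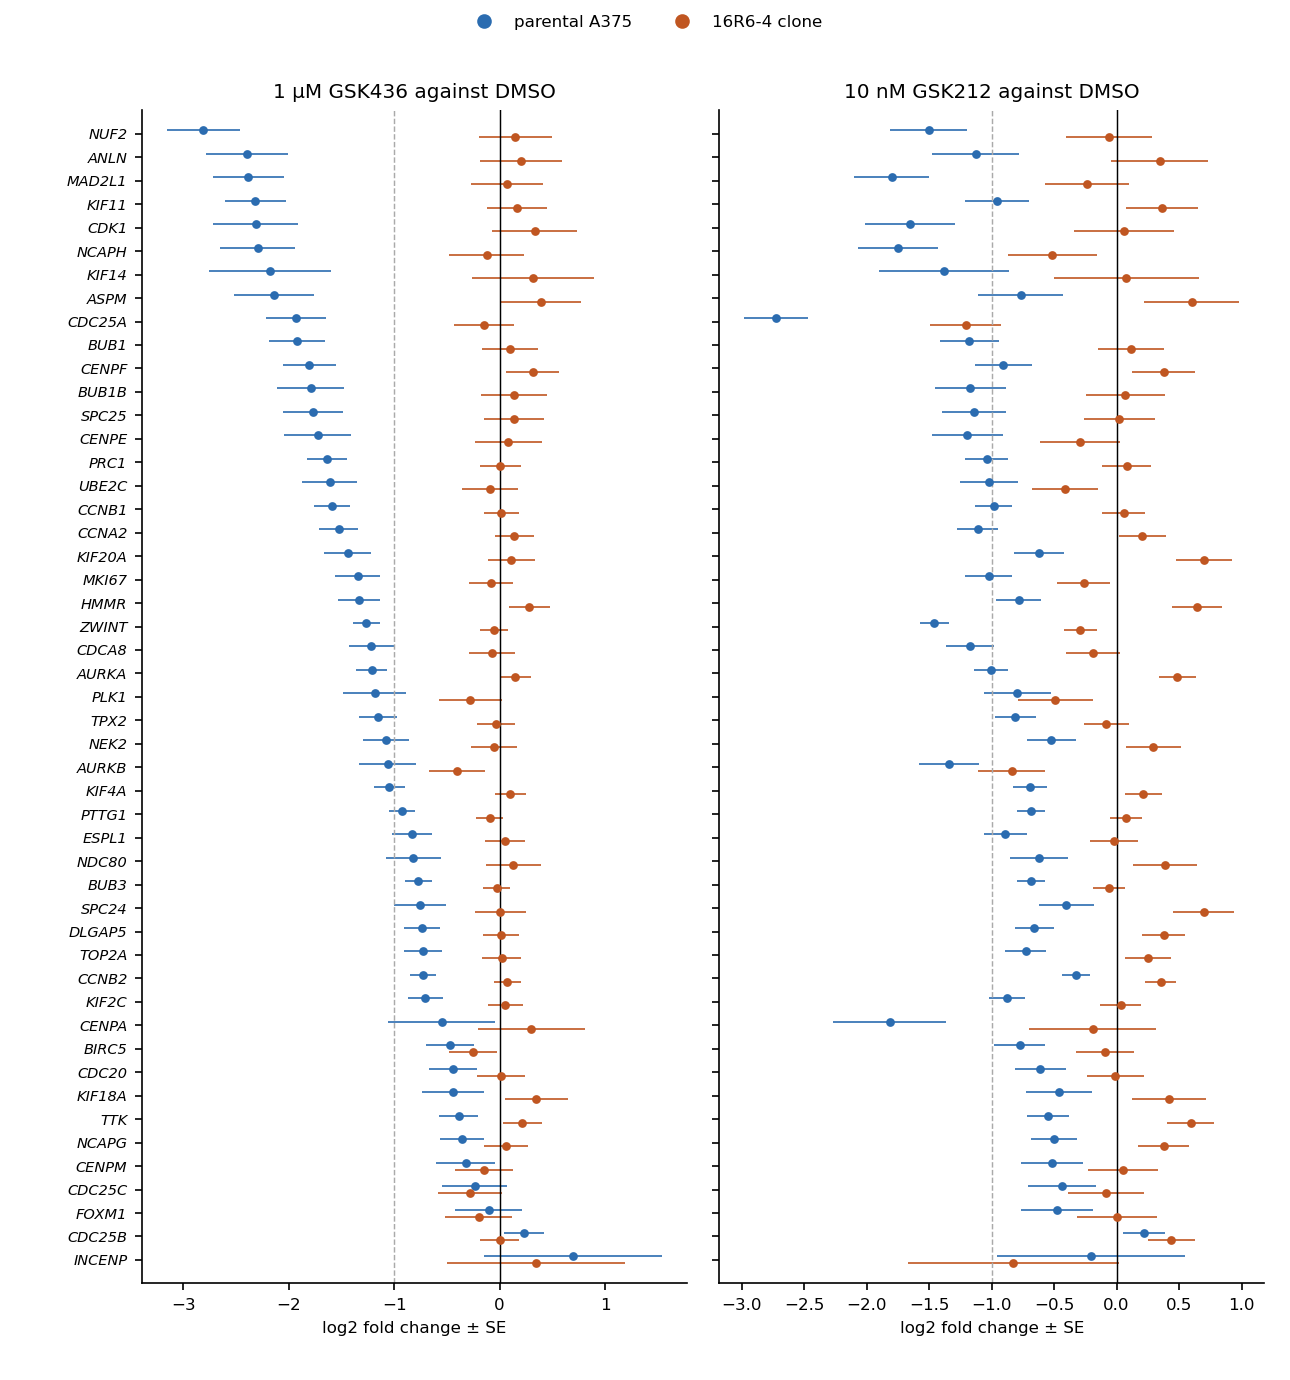
Log2 fold change against DMSO, with its standard error, of all 49 members in parental A375 (blue, 2 or 3 treated arrays) and in 16R6-4 (orange, 3 treated arrays) at 1 µM GSK436 (left) and 10 nM GSK212 (right), ordered by the parental change at 1 µM GSK436; the dashed line marks -1. Orange points gather at 0 in both panels, and on the right CDC25A is the clone's lowest, at -1.21.

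DUSP6 and the mitotic genes are set side by side for the clone. At 10 nM GSK212 the clone's DUSP6 fell by 4.68 ± 0.64 (adjusted p = 6.98e-06) to signals of 51.8, 60.7 and 68.6, while the members' median change was 0.06. The parental cells at 1 µM GSK436, with DUSP6 at 83.5 and 86.2, had a members' median of -1.19. Line and drug both differ between these groups, and the difference of their medians was not tested. Under 10 nM GSK212 alone parental DUSP6 was at 3.23, 20.4 and 38.7, around or below the pooled median, so no difference between the lines is read from it there. DUSP6 reads ERK output at 1 gene, and other outputs of the pathway are not described here.

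In DMSO, 0 of the 49 members were called between the lines, against 2.16% of genes called lower and 1.47% called higher in the clone. By limma at an unadjusted p under 0.05, 9 were lower and 1 higher in the clone, against 9.16% and 5.82% of all genes. The median difference was -0.19, beside -0.10 for all genes. Below the size threshold, CDC25B (-0.98 ± 0.19; adjusted p = 0.00052), PRC1 (-0.80 ± 0.19; 0.00691), CCNB2 (-0.62 ± 0.13; 0.00104) and AURKA (-0.60 ± 0.15; 0.009) were lower in the clone. Of these, CDC25B and AURKA lie on chromosome 20, and PRC1 and CCNB2 on chromosome 15. Whether they differ as part of a wider shift of those chromosomes in the clone was not tested. The clone's untreated AURKA signals lay wholly below the parental ones. Leaving out parental DMSO replicate 1 or 2 or the clone's DMSO replicate 1 gave 1 call in place of 0.

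Few members were called between a combination and its single drugs, which share arrays across these comparisons. In parental cells, the combination with 0.1 µM GSK436 differed from 0.1 µM GSK436 alone for 1 member (background 0.443% lower), TTK, at 279, 282 and 295 against 628 and 701 (-1.21 ± 0.19; adjusted p = 0.000539). These arrays did not overlap. Without combination replicate 1 this comparison had 3 calls, 2 of them higher. Against 10 nM GSK212 alone, neither parental combination had a called member (background 0.00554% and 0.083% lower, 0% and 0.26% higher), with 3 and 21 members lower and 2 and 0 higher at an unadjusted p under 0.05. Of all genes 3.58% and 4.74% were lower and 3.19% and 6.06% higher at that level, so the 3 lower and 2 higher members are near the background. The combination with 1 µM GSK436 had 0 called against 1 µM GSK436 alone (background 0% lower, 0.0166% higher), with 5 lower and 0 higher at that level, against 3.88% and 4.86%. Without replicate 1 of 10 nM GSK212, 2 members were called in the comparison of the combination with 1 µM GSK436 against GSK212 alone. Against DMSO, the combinations had 16 and 32 calls, beside 19 for 10 nM GSK212 alone and 29 for 1 µM GSK436 alone.

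In the clone, adding 10 nM GSK212 to 0.1 µM GSK436 lowered 1 member (background 1.16%), CDC25A (-1.75 ± 0.25; adjusted p = 8.7e-06). Adding it to 1 µM GSK436 lowered 3 (background 1.46%), CDC25A (-2.00 ± 0.25), NCAPH (-1.37 ± 0.32) and ZWINT (-1.21 ± 0.12; adjusted p = 3.03e-09). Adding 1 µM GSK436 to 10 nM GSK212 lowered 1 (background 0.188%), SPC24 (-1.02 ± 0.22; adjusted p = 0.00918), a call that ended without 10 nM GSK212 replicate 3 (-0.99) or combination replicate 1 (-0.76), and with the actin ratio as a covariate (-0.70). Adding 0.1 µM GSK436 to it lowered 0 (background 0.00554%), with 8 members lower and 0 higher at an unadjusted p under 0.05, against 2.22% and 2.83% of all genes. Although few were called, 46 of 49 members had a negative sign for the combination with 1 µM GSK436 against GSK212 alone, with a median of -0.49 beside 0.02 for all genes. Wholly separate, lower arrays were found for 38 of the 49, against 11.1% of all genes. DUSP6 was at 15.8, 20.6 and 24.0 there and at 51.8, 60.7 and 68.6 under 10 nM GSK212 alone (-1.47 ± 0.57; adjusted p = 0.272, not called).

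Other mitotic genes outside the 49 were read from lists of the same functions. At 1 µM GSK436 in parental cells, 14 of 28 measured kinetochore and centromere genes were called lower and 1 higher, against 7.68% and 11.8% of all genes. Among them were CENPK, a centromere protein (-2.21), OIP5, which loads CENPA (-2.13), and CENPI (-2.05). PMF1, a subunit of the MIS12 complex, was the one called higher (1.19). Of 25 other motor, spindle and cytokinesis genes 14 were called lower, with PBK, a mitotic kinase (-2.61), KIF23, a midzone kinesin (-2.54), and DEPDC1B (-2.21) first. Condensin and cohesin genes followed in 8 of 15, led by SMC4 (-1.85), NCAPD3 (-1.82) and NCAPG2 (-1.66). The medians of these 3 lists were -0.96, -1.04 and -1.05.

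Genes that control CDK1 or the anaphase-promoting complex were read in the same way. At 1 µM GSK436, 4 of 8 other CDK1 control genes fell (background 7.68%), first CKS2, a CDK-binding subunit (-1.50), CDKN3, a CDK phosphatase (-1.39), and CKS1B (-1.25). At 10 nM GSK212, 5 of these 8 fell (background 4.04%), first CKS1B (-1.51), GADD45A, a stress protein that can inhibit CDK1 (-1.51), and WEE1, a kinase that inhibits CDK1 (-1.21). The anaphase-promoting complex list, with a median of 0.02, had 4 of 14 lower at 1 µM GSK436 (background 7.68%), ANAPC10 (-2.37), FBXO5, an inhibitor of the complex (-1.74), UBE2S, its ubiquitin-elongating enzyme (-1.32), and CDC27 (-1.14). Of 13 DREAM and MYB-MuvB factors, TFDP1 (-2.42), MYBL1 (-2.05), E2F5 (-2.01) and RBBP4 (-1.07) were lower and LIN37, a MuvB core subunit, was higher (1.51), against 7.68% and 11.8% of all genes. In 16R6-4 at 1 µM GSK436 no gene of these 6 lists was called, against 0.00554% of all genes lower and 0.072% higher. Under the clone's combination with 1 µM GSK436, RBL2, the pocket protein of DREAM, was higher (1.21 ± 0.40; adjusted p = 0.0468), as was LIN37 (1.00), and CDCA5, sororin (-1.42), UBE2S (-1.07) and SKA3 (-1.12) were lower, where 4.83% of all genes were called higher and 1.69% lower.

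RNA quality differed between arrays and moved with the groups. The ratio of the actin 3′ to 5′ control signals, which rises as RNA is shortened, ranged from 3.72 to 45.0 and was above 20 on 15 of 38 arrays. Its group means were 7.76 in parental DMSO and 37.3, 27.9, 17.8, 20.9, 10.7 and 22.2 in the 6 parental treatments, and 5.47 in the clone's DMSO and 19.9, 10.9, 22.7, 20.7, 20.9 and 8.16 in its treatments. Per array, the members' median log2 signal minus each gene's mean over all arrays was 0.50 to 0.57 in parental DMSO. The 9 treated parental arrays with a ratio above 20 were at -0.81 to -0.17 and the 6 others at -0.74 to -0.21. The clone's DMSO arrays were at 0.27 and 0.32, its 6 treated arrays with a ratio above 20 at -0.03 to 0.50, and its 12 others at -0.14 to 0.44. The part of RNA quality in the results was not tested. At 0.1 µM GSK436, where both parental treated arrays had ratios of 37.2 and 37.5, the count of parental members called was 9 with the ratio as a covariate, against 20 without. The clone's 0.1 µM GSK436 replicate 3, with a ratio of 37.4, was at -0.03, against 0.41 and 0.37 on the other arrays of its group.

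**Figure D5:**
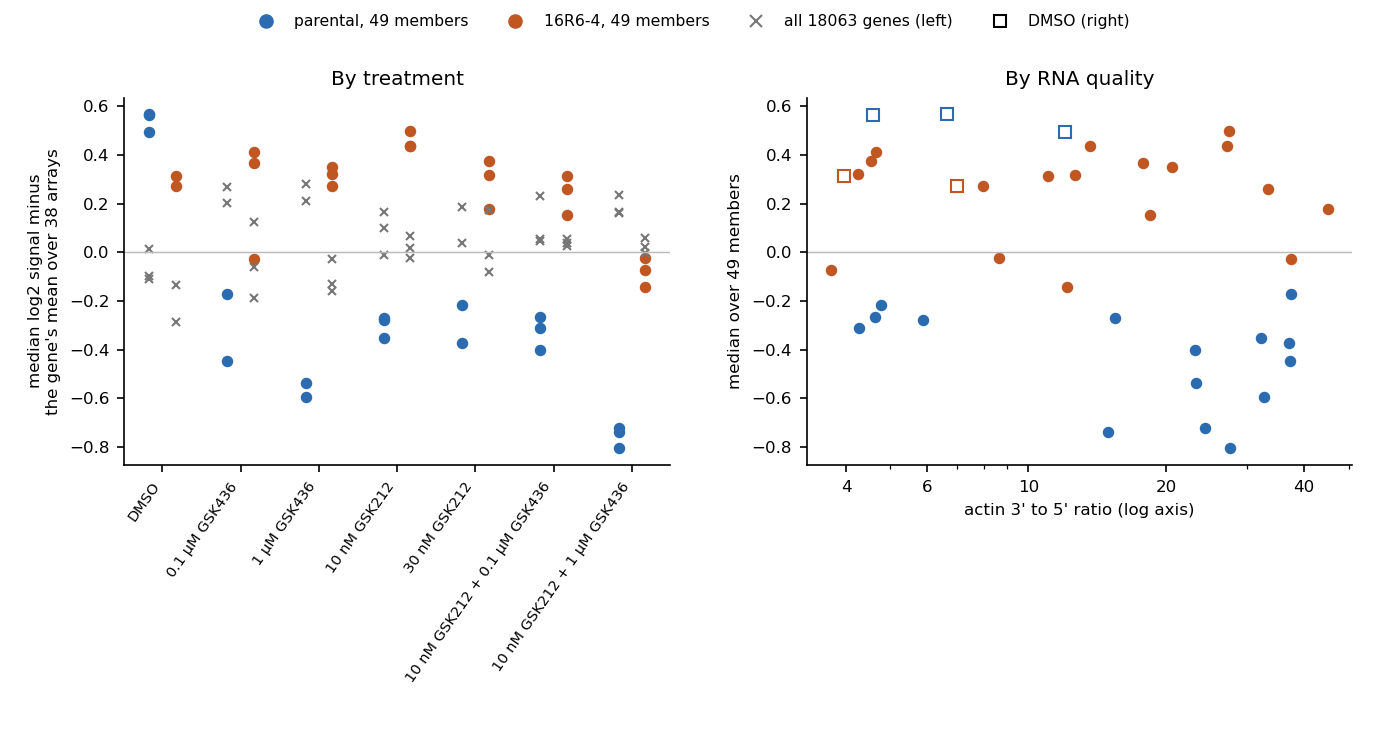
Left, median over the 49 members of log2 signal minus the gene's mean over 38 arrays, for each array by treatment (blue parental, orange 16R6-4), with the same median over all 18063 genes as gray crosses; right, the members' median against the actin 3′ to 5′ ratio (log axis; open squares are DMSO). All treated parental arrays lie below 0, at ratios of 4.26 to 37.5, and the parental DMSO arrays lie at 0.50 to 0.57, at ratios below 20.

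Markers of other cell types were read in both lines. The summed signal of 7 leukocyte markers was 119 to 424 in parental and 57.1 to 349 in 16R6-4 arrays, that of 5 fibroblast markers 103 to 745 and 39.2 to 533, and that of 8 melanocyte lineage genes 993 to 2097 and 981 to 1764. Of the leukocyte list, PTPRC was at 2.71 to 53.0 and 9.65 to 44.9, and of the melanocyte list MLANA was at 1.66 to 59.0 and 0.59 to 27.3, both around background. Other genes of the lists lay higher, CD79A, a B cell gene, at 38.4 to 173 in parental and 8.30 to 153 in 16R6-4 arrays, beside MITF and SOX10 as given above. Of the leukocyte genes 4 of 7 had a median signal below the pooled median in parental cells and 6 of 7 in the clone, of the melanocyte genes 4 and 7 of 8, and of the fibroblast genes 1 and 2 of 5. None was at 0. Their part in the results was not tested.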

How the data were processed

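RNA of 38 samples was measured on Affymetrix arrays with 54675 probe sets. The deposited values are MAS5 signal intensity per probe set, per the submitters' processing notes, and the authors scaled every array to a common trimmed mean. The members, lists and alternatives were chosen with earlier results of these data known. Here, probe sets naming a single gene in the 2016 platform annotation (41097, with 1801 naming several and 11777 none) were kept if above the pooled median signal of 34.88 on at least 2 arrays, and the one with the highest mean log2 signal stood for its gene, giving 18063 genes. Values were log2(signal + 2.8), the pseudocount being the pooled 10th percentile. It makes fold changes of low genes smaller than on the signal itself. Fits used limma 3.58.1 in R 4.3.3 over 14 groups with trend, 24 residual degrees of freedom and Benjamini-Hochberg adjustment per comparison over 27 comparisons. Errors are standard errors of the fit. The number of arrays limits the precision. Named genes were a core of 13, the first 5 called members per direction, the smallest call, members that differed between lines, and the first 3 called genes of the other lists. A simulation of 18063 genes gave 200 of them a change at 1 µM GSK436 in parental cells. Where the log2 change was 1.5, 37% were called, and where it was 2.5, 59% were, with 5 false calls. In the measured comparison, 2350 genes were lower and 2930 higher at an adjusted p under 0.05 (limma). The adjustment depends on the share of genes that change, so these percentages do not give the recovery in the measured data. Deviations of same-numbered arrays correlated at -0.27 to 0.16, and 0 of 21 comparisons met the criterion for pairing, so no replicate block was used. With 2 or 3 arrays a group, this check cannot show that such arrays share nothing. Alternatives covered normalization, centring, pseudocount, filter, probe sets, samples fitted, the replicate block, the actin ratio, array weights and each array left out. Plots used matplotlib 3.10.9.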

Additional observations from a re-analysis of the deposited data

Results flagged for a closer look

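No group has 4 or more arrays, so no array was tested as an outlier within its group. The results below were marked because the 2 lines changed differently under the same treatment, by the interaction term of the limma fit. At 0.1 µM GSK436, 5 members differed, and the largest called differences were CDC25A (1.97 ± 0.40), MAD2L1 (1.88 ± 0.48) and ZWINT (1.43 ± 0.19). At 1 µM GSK436, 27 members did, the largest called being NUF2 (2.96 ± 0.49), CDK1 (2.65 ± 0.57) and ANLN (2.60 ± 0.55). At 10 nM GSK212, 12 members did, first CDC25A (1.52 ± 0.38), AURKA (1.49 ± 0.20) and HMMR (1.43 ± 0.27). At 30 nM GSK212, 5 members did, first PLK1 (1.68 ± 0.42), AURKA (1.19 ± 0.21) and PRC1 (1.17 ± 0.27). In the combination with 0.1 µM GSK436, 4 members did, first AURKA (1.38 ± 0.20), TTK (1.15 ± 0.25) and HMMR (1.15 ± 0.27). In that with 1 µM GSK436, 10 members did, first MAD2L1 (1.73 ± 0.45), KIF11 (1.64 ± 0.39) and CENPF (1.53 ± 0.34). Several of these calls ended when a single array was left out, that of PLK1 without any of 9 arrays, of MAD2L1 without any of 9 in the combination with 1 µM (adjusted p of 0.0535 to 0.457, and 0.0525 with no filter) and any of 3 at 0.1 µM GSK436, of KIF11 and of HMMR in the combination with 0.1 µM without any of 6 each, of PRC1 without any of 6, of CDC25A at 10 nM without any of 5, of TTK without any of 2 and of CENPF without 1. All are log2 differences, the clone's change minus the parental change, with standard errors.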

How the results depend on the processing

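Over 27 counts and all alternatives, 441 counts were recomputed, of which 368 stayed within 1.5 times. No called value of a member reversed. With each array centred on its median, which removes a shift of the all-gene median of 0.17 to 0.39 in parental treatments, parental counts rose to 33 (0.1 µM GSK436), 30 (10 nM GSK212), 36 (30 nM) and 36 (combination with 0.1 µM), and 16R6-4 counts to 2, 3, 6 and 8 in the 4 treatments with GSK212. Line differences under centring were called for 12 (0.1 µM GSK436), 7 (10 nM), 2 and 4 members (combinations with 0.1 and 1 µM), and the clone's combination with 1 µM against GSK212 for 3. With the actin ratio as a covariate, counts were 9 for parental 0.1 µM GSK436, 2 for 16R6-4 10 nM GSK212, 9, 23, 8 and 11 for the line differences at 0.1 µM GSK436, 10 nM, 30 nM and the combination with 0.1 µM, 0 for the parental combination with 0.1 µM against GSK436 alone, and 2 for the clone's combination with 1 µM against GSK212. Array weights gave 22, 25, 12, 9 and 21 for the line differences at 0.1 µM GSK436, 10 nM, 30 nM and the 2 combinations, 4 for the parental combination with 0.1 µM against GSK436 alone, 1 for it against GSK212, and 0 for the clone's combination with 1 µM against GSK212. Fitting only the groups compared gave 3, 7 and 0 for the line differences at 0.1 µM GSK436, 10 nM and 30 nM, 2 for the clone's combination with 0.1 µM against DMSO, and 2 for the parental combination with 0.1 µM against GSK436. The mean of all probe sets gave 3 and 3 for the line differences at 0.1 µM GSK436 and 30 nM, and 2 for the combination with 0.1 µM against GSK436 in each line. Quantile normalization gave 1 between the lines in DMSO and 0 for the clone's combination with 1 µM against GSK212. Using only arrays with an actin ratio of at most 20, an alternative chosen after seeing the data, gave 5, 1, 1 and 6 for the line differences at 10 nM, 30 nM and the combinations, 0 for 16R6-4 10 nM GSK212, and 0 for the clone's combination with 1 µM against GSK212. Centring moves all genes of an array alike, and the shares of all genes called under these alternatives are not given here. The cause of these moves was not tested. In the fit with a replicate block, 27 of 27 counts stayed within 1.5 times and 27 members were called in the line difference at 1 µM GSK436. That block ended the call of PLK1 in the line difference at 30 nM GSK212 (adjusted p = 0.0571) and made 1 other.

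Leaving out each array in turn moved the parental counts to 14 to 21, 26 to 30, 16 to 23, 12 to 18, 15 to 17 and 28 to 33, in the order of the treatments in the report, and those of 16R6-4 to 0 to 0, 0 to 0, 0 to 1, 1 to 1, 1 to 2 and 3 to 5. Between the lines in DMSO the range was 0 to 1. The line differences ranged over 4 to 17, 21 to 28, 6 to 19, 1 to 5, 1 to 6 and 3 to 15 calls. The combination comparisons ranged over 1 to 3, 0 to 0, 0 to 0 and 0 to 2 in parental cells and 1 to 1, 0 to 0, 3 to 3 and 0 to 1 in 16R6-4. Counts of 1 fell to 0 without the clone's DMSO replicate 1 (16R6-4, 10 nM GSK212) and without its 10 nM GSK212 replicate 3 (clone's combination with 1 µM against GSK212). Line differences were called for 1 member at 30 nM without parental 30 nM replicate 3 or the clone's DMSO replicate 2, and for 1 in the combination with 0.1 µM GSK436 without the clone's DMSO replicate 2 or combination replicate 1. In that with 1 µM GSK436 they were called for 3 without the clone's DMSO replicate 1. Signal near background limits INCENP, which was above the pooled median on 22 of 38 arrays.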
